A study of Mus musculus with 20 samples.

Results

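The comparison set 8 brain libraries labelled HEM against 4 labelled WT, all from mice of 13 months. These 12 libraries, taken by their genotype and age labels, are 12 of the 20 in the series. The other 8, made up of 4 HEM and 4 WT libraries at 3 months, came from different mice and are used here only to see whether a pattern recurs. In HEM mice human wild-type α-synuclein was overexpressed from an X-linked transgene that the murine Thy-1 promoter drives. WT mice lacked it, and both genotypes had the B6D2F1/J background, a cross of inbred strains; the label of HEM replicate 3 leaves the background out. The Thy-1 promoter is known to be active mainly in neurons, so in this model microglia meet a protein that is made largely by other cells. DNA was taken from whole brain homogenate enriched for microglia, not from purified cells, and the sex of the mice is not stated.

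The assay was reduced representation bisulfite sequencing, in which an enzyme cuts the DNA and the CpG-rich fragments are read. The values were the percent of methylated cytosine at 1126583 autosomal positions, of 1151247 listed positions in all, and the read depth behind each percent is unknown. Of the autosomal positions 140250 lay directly beside another listed position, as the opposite strands of a CpG do, and each is counted as a CpG here.

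Methylation of CpGs is copied when cells divide and differs between cell types. CpG islands at gene starts are mostly unmethylated, most CpGs elsewhere are methylated, and enhancers and promoters that a cell type uses tend to lose methylation in that cell type. A library of mixed cells therefore shows intermediate levels at genes that only some of its cells use. Microglia, the resident macrophages of the brain, keep genes such as Spi1, P2ry12 and the C1q genes open, whereas neurons, astrocytes and oligodendrocytes do not. Aggregates of α-synuclein are the main component of Lewy bodies in Parkinson disease, and microglia are known to take them up and to respond to them.

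The upstream sequences of 4 genes show the kind of promoter on which the results turn. At Dok3 and P2rx7 methylation followed that of microglia marker genes from library to library, at 4430402I18Rik it ran against them, and at Gm31392 every HEM library lay below every WT library by a small margin, without passing the test. Each line holds the 250 bases before an annotated start, from RefSeq on GRCm38.p6, the assembly of mm10, written 5′ to 3′ on the strand of the gene. They span chr13:55528539-55528788 on the minus strand for Dok3, chr5:122650133-122650382 on the plus strand for P2rx7, chr19:28967833-28968082 on the minus strand for 4430402I18Rik and chr14:24073768-24074017 on the minus strand for Gm31392. The starts of Dok3 and P2rx7 lie 1807 and 6456 bp inside the annotated genes. Capitals mark the CpGs with a listed value.
Dok3: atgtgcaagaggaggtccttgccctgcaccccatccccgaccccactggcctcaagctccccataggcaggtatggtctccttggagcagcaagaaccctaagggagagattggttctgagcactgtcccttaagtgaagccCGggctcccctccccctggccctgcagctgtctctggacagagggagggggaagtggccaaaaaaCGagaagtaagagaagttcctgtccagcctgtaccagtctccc
P2rx7: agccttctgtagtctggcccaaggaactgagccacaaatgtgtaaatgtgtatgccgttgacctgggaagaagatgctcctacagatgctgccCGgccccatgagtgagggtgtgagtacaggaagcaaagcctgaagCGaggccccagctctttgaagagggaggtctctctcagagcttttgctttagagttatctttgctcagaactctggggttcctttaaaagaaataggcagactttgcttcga
4430402I18Rik: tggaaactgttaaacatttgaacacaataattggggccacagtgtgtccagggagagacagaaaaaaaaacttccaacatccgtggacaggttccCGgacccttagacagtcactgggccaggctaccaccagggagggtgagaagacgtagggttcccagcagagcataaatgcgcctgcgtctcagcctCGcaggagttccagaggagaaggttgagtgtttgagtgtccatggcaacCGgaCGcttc
Gm31392: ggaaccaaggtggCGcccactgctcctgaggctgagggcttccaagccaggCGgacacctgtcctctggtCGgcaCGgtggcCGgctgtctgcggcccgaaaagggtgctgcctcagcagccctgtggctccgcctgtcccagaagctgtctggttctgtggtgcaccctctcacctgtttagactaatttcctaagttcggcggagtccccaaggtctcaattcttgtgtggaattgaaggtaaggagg

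The libraries of a genotype were not alike. HEM replicate 8 stood apart, with an autosomal mean of 29.1% where the other HEM libraries had 30.3% to 31.8% and WT libraries 30.4% to 31.2%. At CpGs of intermediate level, whose mean lay between 20% and 80%, HEM replicate 8 was at 49.6% and the other 11 libraries were at 54.5% to 60.8%. Class means, calls, the direction of most differences and the marker relations are therefore given with and without it.

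No class of the autosomal genome passed a test between HEM and WT. CpGs were split by place, by density and by level, and the mean of each class per library was compared with a two-sided exact permutation test over every split of the 12 libraries, whose smallest p is 0.00202. CpGs within 1 kb of an annotated start made up 41.4% of the positions and were almost unmethylated, at 3.64% ± 0.203 (SD, n = 8) in HEM, against 3.60% ± 0.108 (SD, n = 4) in WT (p = 0.754, exact permutation test). CpGs inside genes but farther from their ends were at 57.5% ± 1.55 (SD, n = 8) and 57.4% ± 0.588 (SD, n = 4; exact permutation p = 0.923). CpGs outside genes were at 64.8% ± 1.66 (SD, n = 8) and 65.2% ± 0.774 (SD, n = 4), and this difference of -0.363 points was the widest of any class (exact permutation p = 0.723).

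Density gave the same picture. Sparse CpGs, with fewer than 10 listed positions within 500 bp, the CpG itself included, were at 70.1% ± 1.88 (SD, n = 8) in HEM, against 70.3% ± 0.670 (SD, n = 4) in WT (p = 0.897, exact permutation test), and dense CpGs, with 40 or more, were at 1.36% ± 0.0970 and 1.31% ± 0.0811 (exact permutation p = 0.410). With HEM replicate 8 included, the spread between HEM libraries was wider than between WT libraries in each of the 11 classes by place, density and level. Without it this order did not hold throughout. At CpGs with a mean level under 20% the other HEM libraries ran from 1.23% to 1.55% and WT libraries from 1.11% to 1.48%. By chromosome the differences ran from -0.104 points on chromosome 3 to 0.0938 points on chromosome 19. Every one of the 30 classes, chromosomes included, had an adjusted p of 1.0, and of 0.992 or higher after the microglia marker mean described below was taken out. Without HEM replicate 8 the class differences moved upwards, to 0.250 points over all autosomal CpGs (exact permutation p = 0.424) and 1.2 points at CpGs of intermediate level (exact permutation p = 0.355), and CpGs outside genes turned from -0.363 to 0.128 points. In the 3 pairs of libraries that share a replicate number, HEM was the higher library of every pair. This held in each of the 11 classes by place, density and level. The labels do not give this pairing, which was taken from these data. The pairs leave out HEM replicates 3, 8, 10, 11 and 13 and WT replicate 2. They keep HEM replicates 1 and 6, whose autosomal means of 31.7% and 31.8% were the highest. The mean paired difference was 0.786 points over all autosomal CpGs, 1.09 outside genes and 3.33 at CpGs of intermediate level. An exact sign-flip permutation test of 3 pairs cannot give a p under 0.25, which each of these had.

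**Figure D1:**
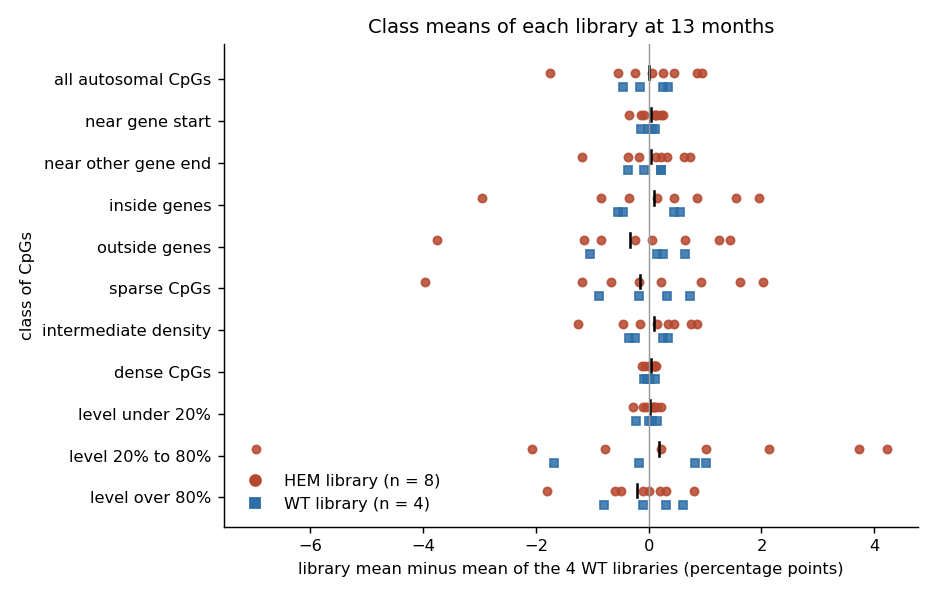
Mean methylation of each class of autosomal CpGs per library, on the x axis as percentage points from the mean of the 4 WT libraries; circles are HEM libraries, squares WT libraries and the black tick the HEM mean. The HEM circle farthest to the left is HEM replicate 8 in every class, and the groups overlap in all classes.

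Nor did HEM libraries lie apart from WT libraries over all CpGs. The mean absolute difference per CpG was 4.22 points for pairs of a HEM and a WT library, 3.99 points for pairs of HEM libraries and 4.46 points for pairs of WT libraries. The difference of between-group over within-group pairs, 0.139 points, had an exact permutation p of 0.242 (two-sided) and was 0.15 without HEM replicate 8. The library nearest to each of the 4 WT libraries was HEM replicate 3 or 7, and the library nearest to each of the 8 HEM libraries was also a HEM library.

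At single CpGs limma, a linear model with variances shared across features, was run on the log2 ratio of methylated to unmethylated percent with an offset of 1. Of 444099 CpGs with a mean between 5% and 95%, 3 were called (0.000676%) at an adjusted p under 0.05 and a difference of at least 10 points, 1 higher and 2 lower in HEM. Before adjustment 25660 CpGs (5.78%) had a p under 0.05, and 11140 of them were higher in HEM. The called CpGs lay in Amph, an endocytic protein of nerve terminals, in the zinc finger gene Zfp993 and in Larp1, which binds mRNAs that encode the translation machinery. The Larp1 CpG lay inside the annotated gene, 2455 bp before the nearest of its annotated starts. All 4 WT libraries read exactly 100% at the Amph and Larp1 CpGs and exactly 0% at the Zfp993 CpG, while HEM libraries ran from 80.6% to 90.3% (median 87.2%), from 78.4% to 94.0% (median 85.4%) and from 7.50% to 22.2% (median 13.5%).

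Listed CpGs beside the called ones mostly differed less. At Zfp993 (chr4:146932654) the position on the opposite strand, 1 bp away, was at 11.8% in HEM and 11.6% in WT, so that WT libraries with no methylation at the called position had it at its neighbour. Among the 36 other listed positions within 500 bp the differences ran from -5.61 to 14.3 points with a median of 2.01, and the 1 kb tile, with 37 CpGs, differed by 2.52 points (limma unadjusted p = 0.136). At Larp1 (chr11:58006609) the opposite strand was at 85% in HEM and 89.1% in WT, and the tile of 4 CpGs differed by -4.83 points (limma unadjusted p = 0.00546). The Amph CpG (chr13:18972397) had no other listed position within 500 bp. At 3 months the HEM and WT means were 90.5% and 93.8% at Amph, 9.81% and 6.36% at Zfp993, and 87.4% and 85.8% at Larp1.

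The count of called CpGs depended on the WT libraries and on the scale. It was 0 on the percent scale and 0 with an offset of 5, and 1, the Amph CpG, when opposite strands were averaged. Pairing the libraries that share replicate numbers 1, 6 and 7 as a block gave 0, and the same 6 libraries without the block also gave 0. Leaving out WT replicate 1, 6, 7 or 2 raised it to 43, 27, 23 and 19, and leaving out HEM replicate 7, 6, 10, 3 or 13 gave 7, 6, 6, 5 and 5.

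Tiles of 1 kb with at least 3 CpGs average over counting error, and none of 69501 was called (0.0%) with limma at a difference of at least 5 points. Before adjustment 3816 tiles (5.49%) had a p under 0.05, of which 1698 were higher in HEM, and the smallest adjusted p was 0.822. Most tiles hardly differed: the median difference was -0.178 points, 53.3% of tiles lay within 2 points of 0, and 1390 tiles (2.0%) differed by 10 points or more, 781 of them higher in HEM. HEM and WT libraries did not overlap in 318 tiles (0.458%). Without HEM replicate 8 no tile was called and the median difference turned to 0.233 points, with 53.7% of tiles higher in HEM where 47.2% were with it.

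Of the 10 tiles of smallest p in each direction, 16 of 20 had groups that did not overlap, and 16 lay inside an annotated gene. Each had a limma adjusted p of 0.822, and they were selected for their p, so their differences are descriptions. A tile in Nfib, a nuclear factor I transcription factor gene, at chr4:82439001-82440000, read 65.9% to 79.9% in HEM (median 74.6%) and 54.7%, 56.8%, 67.9% and 57.6% in WT. Here WT replicate 6 fell within the HEM range. A tile in Ssbp3, a cofactor of LIM-domain transcription factors, was higher in HEM by 13.7 points, a tile in the neuronal Golgi GTPase gene Rab6b by 10.8 and a tile in the agrin receptor gene Lrp4 by 8.58. The tile of widest lower values was in Abcc1, which encodes a drug and glutathione exporter, at chr16:14459001-14460000. Its HEM libraries ran from 67.3% to 86.2% (median 78.1%) and its WT libraries read 93.3%, 85.1%, 92.4% and 89.7%, so that the groups overlapped in 1 WT library.

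These tiles did not repeat at 3 months. Only 8 of the 20 had a difference of the same sign there, and the Abcc1 tile was at 80.9% ± 11.4 (SD, n = 4) in HEM but 72.3% ± 4.13 (SD, n = 4) in WT, the reverse of 13 months. The Ssbp3 tile was at 80.6% ± 8.59 and 85.2% ± 5.61, also reversed. All 20 kept their direction at 13 months when the microglia marker mean was added as a covariate, and 8 of them were also among the 10 tiles of smallest p in that fit. The ages share no libraries, so this is a comparison of separate mice.

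**Figure D2:**
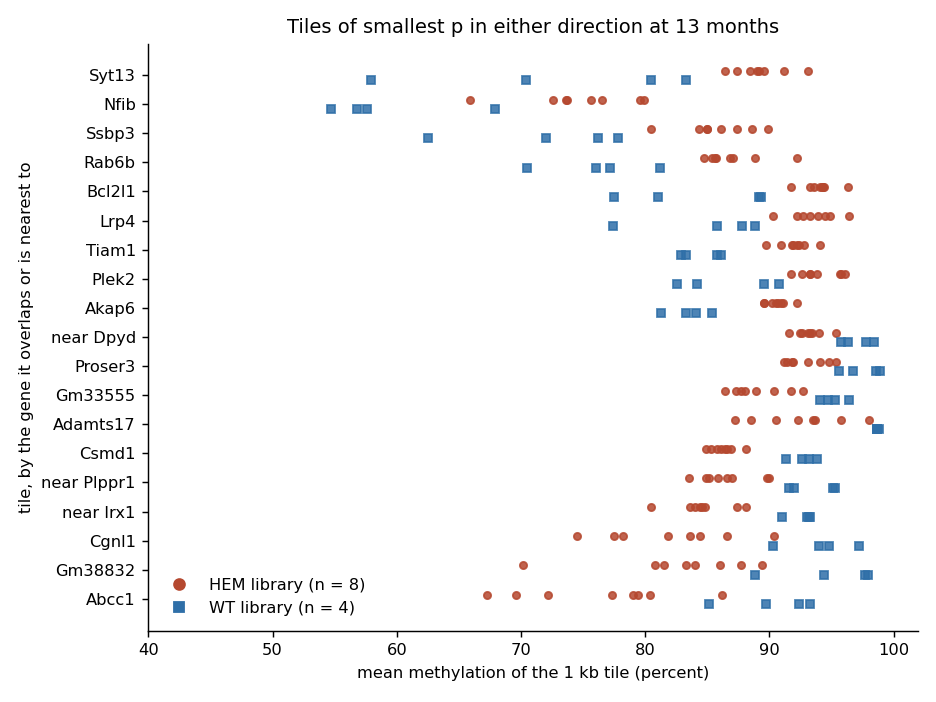
Methylation of 19 of the 20 tiles with the smallest p at 13 months, in percent; circles are HEM libraries and squares WT libraries. The Nfib tile spans 54.7% to 79.9%, and in 15 of these tiles the groups do not overlap.

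Gene regions, which are annotated genes with 1 kb on either side, gave no call (0.0%) among 18945 tested with limma. Before adjustment 763 (4.03%) had a p under 0.05, 340 of them higher in HEM, the smallest adjusted p was 1.0, and 79.9% of regions lay within 2 points of 0. The groups did not overlap in 57 regions (0.301%), among them 8 of the 10 regions of smallest p. One of them was n-TGgcc3, a glycine transfer RNA gene at chr1:74816747-74816817, at 5.50% to 6.42% in HEM and 4.54%, 5.18%, 4.46% and 4.27% in WT. The difference of the means was 1.32 points.

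Acer2, which encodes a Golgi ceramidase, at chr4:86874348-86932524, was at 14.3% to 17.2% in HEM (median 15.5%, 34 CpGs) and 12.0%, 12.7%, 13.3% and 13.4% in WT. Echdc1, an enzyme that removes a faulty product of fatty acid synthesis, at chr10:29298144-29346661, was lower, at 10.7% to 13.7% in HEM (median 12.4%) and 15.3%, 14.0%, 16.9% and 15.5% in WT. In both genes every HEM library lay on 1 side of every WT library. At 3 months Acer2 differed by 0.647 points in the same direction and Echdc1 by 1.87 points in the opposite one. Of the 10 regions of smallest p 5 kept their sign at 3 months, and all 10 kept it with the covariate.

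Leaving out HEM replicate 8, no gene region was called, 58.8% were higher in HEM where 48.9% were with it, and the median difference was 0.165 points.

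Promoter windows reached 1 kb either side of an annotated start, and none of 3561 tested was called (0.0%) with limma. Before adjustment 181 windows (5.08%) had a p under 0.05, 94 of them higher in HEM, and the groups did not overlap in 11 windows (0.309%). Among the 5 of smallest p in each direction 4 had groups that did not overlap, and 3 of the 10 kept their sign at 3 months. Their limma adjusted p ran from 0.789 to 0.877. With that library left out no window was called and 58.0% were higher in HEM, where 50.7% were with it.

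B3gnt3, a glycosyltransferase gene, had 22 CpGs around a start 826 bp inside the gene on chromosome 8, and its HEM libraries were at 6.16% to 12.7% (median 6.65%) where WT libraries were at 15.0%, 17.4%, 12.3% and 20.1%. A window of Mark2, a kinase of microtubule-associated proteins, read 15.6% to 23.4% in HEM and 35.9%, 22.7%, 29.8% and 26.8% in WT. A window at an internal start of Bdnf, the neurotrophin that neurons release with activity, 48221 bp inside the gene, read 92.8% to 97.5% (median 95.5%) and 94.5%, 89.1%, 91.6% and 88.4%. In these 3 windows the groups overlapped by 1 WT library. At 3 months the sign was reversed in each of the 3. B3gnt3 was then at 15.3% in HEM and 12.2% in WT, Mark2 at 26.3% and 24.3%, and Bdnf at 90.8% and 93.8%.

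Among noncoding genes the window of Gm42365, whose start lies inside C1qtnf12 on chromosome 4, was at 7.49% to 31.9% in HEM (median 12.2%) and 5.97%, 4.93%, 8.09% and 4.63% in WT. Its 7 listed CpGs did not share the difference evenly: the one 211 bp before the start was at 2.18% in HEM and 2.25% in WT, and the one 108 bp before it at 24.6% and 10.4%. At Gm31392, whose upstream sequence is printed above, the 5 listed CpGs were all lower in HEM, with differences from -0.813 to -7.78 points, and the window was at 89.2% to 93.0% in HEM and 94.7%, 95%, 93.4% and 93.7% in WT. The window of 1700123J17Rik was at 49.8% to 62.7% in HEM and 40.4%, 48.9%, 45.4% and 48.2% in WT, with a difference of 11.5 points at 13 months and -8.40 points at 3 months.

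The share of features that moved the same way at both ages was below an even split. Of 68585 tiles measured at both ages 42.2% had differences of the same sign, and of the 3750 with an unadjusted p under 0.05 at 13 months 1332 did (35.5%). For gene regions the shares were 39.5% and 31.5%, and for promoter windows 38.3% and 30%. The microglia marker mean was lower in HEM at 13 months, by 2.25 points, and higher in HEM at 3 months, at 47.8% ± 3.58 (SD, n = 4) against 47.0% ± 2.97 (SD, n = 4). With that mean as a covariate at both ages the shares of the same sign were nearer to an even split, at 46.2% of tiles, 45.5% of gene regions and 45.6% of promoter windows. Among features with a limma unadjusted p under 0.05 in that fit at 13 months they were 42.2%, 36.9% and 34.5%. Whether the marker mean had a part in these shares was not tested, and they are given only with HEM replicate 8 included.

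The microglia markers varied more between libraries of 1 genotype than between the genotypes. The mean over their autosomal gene regions was 45.3%, 49.9%, 39.3%, 44.7%, 40.6%, 49.6%, 37.5% and 41.4% in HEM replicates 1, 3, 6, 7, 8, 10, 11 and 13, and 50.3%, 46.3%, 40% and 46.5% in WT replicates 1, 2, 6 and 7. The highest and lowest libraries were thus WT replicate 1 and HEM replicate 11, and WT replicate 6 lay among the low HEM libraries. In a bulk library fewer microglia and higher methylation within microglia cannot be told apart.

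Of the 18 tested markers 13 were lower and 5 higher in HEM, with a median difference of -2.26 points beside -0.016 over all gene regions, and none was called. C1qc, a chain of the complement initiator that microglia secrete, was at 30% to 69.4% in HEM (median 48.5%) and 70%, 56.9%, 43.3% and 61.2% in WT. Spi1, which encodes the master transcription factor of myeloid cells, was at 34.5% to 57.5% in HEM (median 41.8%) and 60.9%, 48.1%, 36.8% and 55.4% in WT. The groups overlapped in each, with a range across HEM libraries wider than the difference of their means.

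The differences at the markers mostly went once the library mean of the markers was in the model, which is partly by construction since each gene is in that mean. C1qc went from -9.42 to -2.64 points, Spi1 from -6.02 to -1.64, and P2ry12, the purine receptor of resting microglia, from -4.77 to -2.26. Among 17 markers examined singly 8 differences changed sign: Trem2, a lipid-sensing receptor, went from -3.66 to 0.0853, Csf1r, the receptor on which microglia depend to survive, from -4.14 to 0.654, and Tmem119, a microglial surface protein, from -3.05 to 0.154. In that model 14 of all 18 were higher in HEM, with a median of 0.162 points. The transcription factor genes Ikzf1 and Sall1 hardly differed without the covariate, at -0.0139 and 0.0754 points. Runx1, also a transcription factor gene, was at 1.10 points, the highest difference among the 18 tested markers. None of these differences passed the test.

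**Figure D3:**
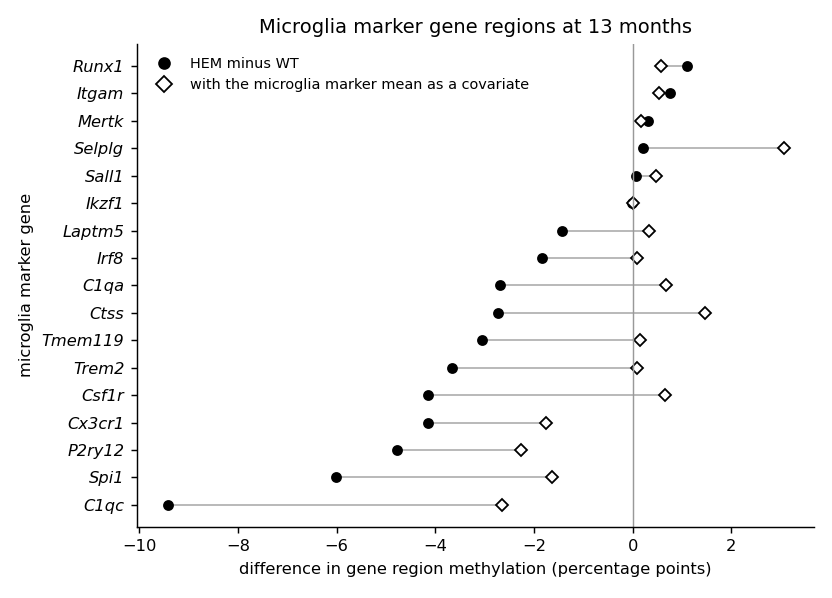
HEM minus WT difference in methylation of 17 microglia marker gene regions, in percentage points; filled circles are from the fit without a covariate and open diamonds from the fit with the microglia marker mean as a covariate. C1qc moves from -9.42 to -2.64, and 13 of 17 diamonds lie above 0.

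Other cell type markers showed smaller differences. Border macrophage and leukocyte markers had a median difference of -2.11 points, with 8 of 11 lower in HEM, and vessel markers -0.708, with 11 of 15 lower. Oligodendrocyte lineage markers had 0.806 points, with 9 of 11 higher, and neuron and astrocyte markers 0.0737 and -0.130 points, with 9 of 16 and 6 of 13 higher. Over all gene regions 9267 were higher and 9678 lower. Leaving out HEM replicate 8, an alternative for lists and families added after seeing the data, turned these to 11131 and 7814, the median of vessel markers turned to 0.126 points with 9 of 15 higher, and microglia and macrophage and leukocyte markers kept medians of -1.75 and -1.37. With all 12 libraries and the microglia covariate the macrophage and leukocyte median was -1.52 points, with 8 of 11 lower. The vessel median was then -1.03, with 12 of 15 lower. Oligodendrocyte lineage, neuron and astrocyte medians were 0.282, -0.0446 and -0.313, beside -0.0632 over all gene regions.

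Across the 12 libraries the microglia mean was set against the other marker lists and the autosomal mean. The microglia mean and the macrophage and leukocyte mean had r = 0.891 and rho = 0.916 (permutation p = 0.00018 and 0.00013, adjusted over 6 relations 0.00108 and 0.00078), with r = 0.884 without the 2 libraries farthest from the median. With the neuron mean r was -0.590 and rho -0.594 (permutation p = 0.0461 and 0.0448, adjusted 0.0958 and 0.134), with r = -0.427 without the 2 farthest libraries. With the oligodendrocyte lineage mean r was -0.586 and rho -0.545 (permutation p = 0.0479 and 0.0706, adjusted 0.0958 and 0.141), with r = -0.498 without the 2 farthest. Without HEM replicate 8, chosen after its values were seen, these became 0.904, -0.795 and -0.819. Astrocyte markers, vessel markers and the autosomal mean gave adjusted p of 0.782 for r, and their rho did not pass either. Only the relation with macrophages and leukocytes passed the adjusted test.

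**Figure D4:**
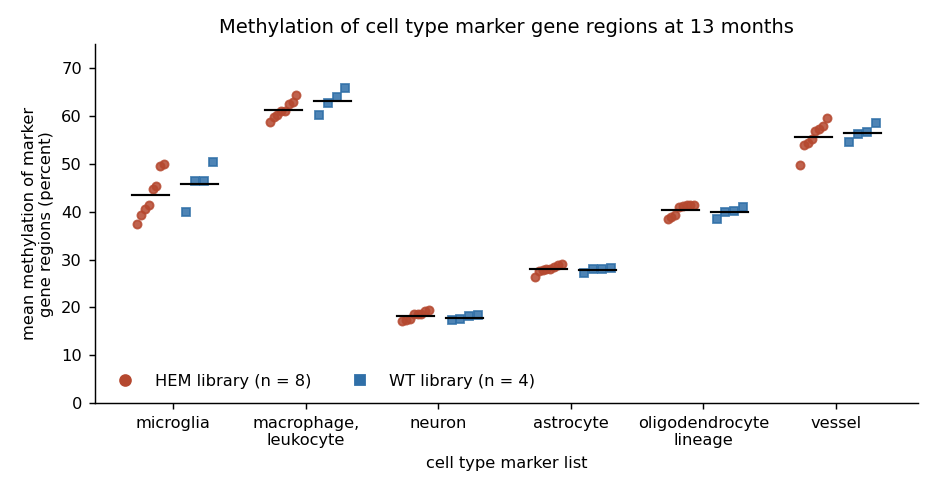
Mean methylation of the gene regions of 6 cell type marker lists in each library at 13 months, in percent; circles are HEM libraries, squares WT libraries and lines the group means. Microglia markers span 37.5% to 50.3%, and the groups overlap in every list.

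Many loci outside the markers moved with the marker mean. In a model with genotype and marker mean together, 2463 of 69392 tiles more than 10 kb from a marker gene had a marker term with an adjusted p under 0.05 (3.55%), of which 1924 moved with the markers and 539 against them. The same held for 620 of 18907 gene regions (3.28%), 531 with and 89 against, and for 229 of 3559 promoter windows (6.43%), 167 with and 62 against. In tiles that moved with the markers the median slope was 1.94 points per point of marker mean and in tiles that moved against them it was -1.51. In gene regions the median slopes were 0.829 and -0.724, and in promoter windows 1.59 and -1.03.

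Since these loci were selected for a slope on a mean that is 2.25 points lower in HEM, the direction of their differences between HEM and WT follows in part from that choice and is a description. Of the 1924 tiles that moved with the markers 1763 were lower in HEM, and of the 539 that moved against them 450 were higher. The median difference of the 1924 was -5.12 points without the covariate and -0.836 with it. For the 531 gene regions it went from -2.09 to -0.331 points and for the 167 promoter windows from -4.66 to -1.27. Whether the share of microglial DNA in a library set these levels was not tested.

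The counts rested on single libraries. Without HEM replicate 8 they were 4589 tiles, of which 2171 moved with and 2418 against the markers, 1574 gene regions (650 and 924) and 491 promoter windows (193 and 298), with the larger increase among loci that moved against the markers. Without WT replicate 6, HEM replicate 10 or HEM replicate 11 they were 1005, 1050 and 1294 tiles, 295, 296 and 344 gene regions, and 131, 140 and 146 promoter windows. Without HEM replicate 3 they were 1605 tiles, and on the percent scale 2592 tiles, 600 gene regions and 213 promoter windows.

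The pattern recurred in the 3-month libraries, which were not used to find it. Of 2435 tiles measured there 2349 had a slope of the same sign on the marker mean (96.5%), beside 66.5% of all tiles. The shares were 98.1% of 620 gene regions, beside 68.6% of all, and 97.4% of 228 promoter windows, beside 70.5% of all. Loci that moved against the markers mostly kept their sign too, in 492 of 534 tiles, 80 of 89 gene regions and 58 of 62 promoter windows.

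Of the 12 promoter windows of coding genes with the smallest marker-term p that moved with the markers, 4 were picked for description after their values were seen. The other 8 were at Arap1, Pdk1, C130050O18Rik, Cuedc1, Slfn8, Rinl, Hpn and Myo1a. Dok3, an adaptor that restrains immune receptor signalling, had 10 CpGs in its window, at 16.6% to 47.8% in HEM (median 28.5%) and 47.0%, 35.8%, 18.7% and 41.8% in WT. HEM replicate 11, lowest in the marker mean, was lowest, and its slope was 2.45 points per point (limma adjusted p = 0.000199). Its HEM minus WT difference was -6.02 points without the covariate and -0.506 with it. In the Dok3 sequence printed above, the CpG 42 bp before the start was at 8.88% against 16.8% in WT, and the CpG at 107 and 108 bp, read on both strands, at 28.1% and 31.1% in HEM against 31.4% and 37.5% in WT.

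P2rx7, the ATP-gated channel that triggers the inflammasome, read 33.0% to 66.2% in HEM (median 46.5%) and 62.0%, 55.9%, 37.1% and 48.9% in WT, with a slope of 2.42 (limma adjusted p = 0.000408). Its HEM difference turned from -3.94 to 1.51 points with the covariate. Of the CpGs in the printed sequence the one 157 bp before the start was at 41.2% in HEM and 49.1% in WT, and the one 112 bp before it at 49.1% and 53.5%. Slc11a1, a metal transporter of the macrophage phagosome, read 32.8% to 69.3% in HEM and 77.8%, 64.0%, 50.4% and 64.5% in WT. It kept -5.61 of its -11.3 points with the covariate, with an adjusted p of 0.988 in limma. The window of Ctu1, a transfer RNA modifying enzyme, which also overlaps the gene of the myeloid receptor Siglece, ran from 8.05% to 45.4% in HEM.

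Of the 12 gene regions of coding genes with the smallest marker-term p that moved with the markers, 6 are described here, and the other 6 were Snx17, Cttnbp2nl, Krt8, Hnrnpul1, Stx19 and Zfp513. Tnfaip8l2, an inhibitor of innate and adaptive immune responses, and its neighbour Lysmd1, whose regions on chromosome 3 share sequence, moved with the markers, from 14.6% to 47.4% and from 14.0% to 43.0% over HEM libraries. In both HEM replicate 11 was lowest and HEM replicate 3 highest. Nckap1l, a subunit of the actin regulator WAVE in blood cells, ran from 3.52% to 7.81% in HEM, Tln1, which links integrins to actin, from 12.3% to 20.9%, and the endosomal GTPase gene Rab5c from 13.9% to 20.9%. HEM replicate 11 was the lowest HEM library in these 3 as well. Bin1, a membrane-bending protein gene, ran from 17.1% to 24.4%.

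Of the corresponding 12 windows that moved against the markers 4 are described, and the other 8 were at Cnksr1, Rhbdl1, Lrrc55, Slc12a8, Aox1, Klk9, Creb3l3 and Hivep3. Lrrc4, a postsynaptic adhesion protein gene that lies inside Snd1, was at 62.4% to 84.8% in HEM (median 76.8%) and 48.7%, 66.5%, 72.7% and 70.2% in WT, with a slope of -1.61 (limma adjusted p = 0.00829). Anks1b, a postsynaptic scaffold gene whose start here lies 703776 bp inside it, was at 67.4% to 91.4% in HEM and 66.2%, 69.9%, 82.8% and 75.5% in WT. Pnma1, a neuronal antigen gene, was at 4.61% to 19.8% in HEM (median 10.8%, 54 CpGs) and 7.18%, 7.73%, 16.1% and 7.36% in WT, with a slope of -1.08 (limma adjusted p = 0.00281). WT replicate 6, the WT library of lowest marker mean, was the highest WT library in all 3. At 4430402I18Rik, whose upstream sequence is printed above, HEM libraries ran from 33.2% to 58.8% and WT libraries read 29.2%, 36.7%, 45.2% and 38.3%. Each of the 9 listed CpGs in the 300 bases around its start was higher in HEM, by 2.85 to 24.9 points. With the covariate the HEM minus WT difference went from 11.8 to 8.17 points at Lrrc4 and from 8.96 to 5.64 at Anks1b. At 4430402I18Rik it went from 8.89 to 5.11 points and at Pnma1 from 2.23 to -0.199. None of these differences passed the adjusted test in either fit.

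**Figure D5:**
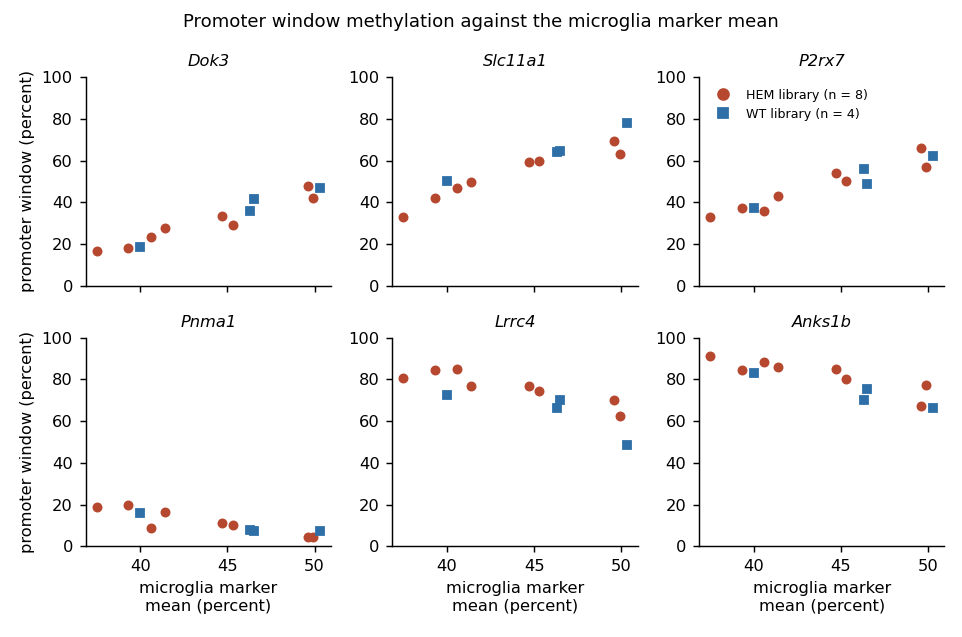
Methylation of 6 promoter windows in each library against the microglia marker mean of that library, both in percent; circles are HEM libraries and squares WT libraries. Dok3, Slc11a1 and P2rx7 rise with the marker mean and Pnma1, Lrrc4 and Anks1b fall, and the ranges of HEM and WT libraries overlap in each.

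Short motifs in the 300 bases around these starts, 250 before and 50 after, were counted on both strands as a description. GAGGAA, a core that PU.1, the product of Spi1, can bind, was in 74 of the 167 windows that moved with the markers (44.3%), in 15 of the 62 that moved against them (24.2%), and in 30.7% of the tested and 28.2% of all 31396 windows. GGGCGG, the GC box, was in 17.4%, 48.4%, 30% and 36.0% of the same sets. CACGTG, an E-box, was in 4.79%, 11.3%, 7.81% and 7.14%. The sets had a median of 6, 7, 7 and 7 CpGs per window, and a GC content of 53.0%, 55.3%, 54.3% and 53.0%. The 300-base window of P2rx7 holds GAGGAA, and those of Dok3 and 4430402I18Rik hold none of the 3 motifs.

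Gene families showed no called member, and the medians of 40 families of shared symbols ran from -0.752 to 1.65 points beside -0.016 over all gene regions. The largest were the solute carriers, transporters of nutrients and ions, with 285 tested members, 139 higher and 146 lower in HEM and a median of -0.0107 points, and the Zfp zinc finger genes, with 227 members, 126 and 101, and 0.0567 points. Clustered homeobox genes, which pattern the body axis, had 10 of 11 tested members higher and a median of 1.65 points, or 0.779 with the covariate; neighbouring members share CpGs. Over all 39 of them, most under the 5% limit, the mean was 4.6% ± 0.760 (SD, n = 8) in HEM, against 4.03% ± 0.583 (SD, n = 4) in WT, within the spread of libraries.

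MicroRNA genes, which encode short RNAs that repress messages, had 137 of 217 higher and a median of 0.559 points. With the covariate these were 122 of 217 and 0.194 points. In limma 16 of them (7.37%) had an unadjusted p under 0.05 beside 4.03% of all gene regions. Over the families this share ran from 0.0% to 12.8%, the highest in keratin genes. GABA receptor genes, of inhibitory synapses, had 10 of 13 higher and 1.04 points, and glutamate receptor genes 18 of 26 and 0.15. The GABA median was 0.975 with the covariate, but in the glutamate receptors the count became 13 of 26. Ephrin and Eph receptor genes of axon guidance had 15 of 21 higher, and histone-modifying enzyme genes 32 of 47, with medians of 0.288 and 0.119 points. In the 11 libraries other than HEM replicate 8 the medians were 0.986 points for microRNA genes, 1.55 for GABA receptors, 0.450 for glutamate receptors and 1.82 for clustered homeobox genes, beside 0.165 over all gene regions.

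With all 12 libraries more members were lower than higher in several families, of which those of sensory, immune and metabolic genes are described here. Trim genes, with 25 of 41 lower, Adam and Adamts metalloproteinase genes, with 24 of 39, and collagen genes, with 25 of 42, were others. For all gene regions together 9678 were lower and 9267 higher. Olfactory receptor genes, measured in only 38 of 1111, had 23 of 35 lower with a median of -0.599 points, and vomeronasal receptor genes 14 of 23 with -0.752. Interleukin and receptor genes had 31 of 49 lower and a median of -0.212, chemokine genes 10 of 16 and -0.285, and TNF family genes 15 of 23 and -0.487, and 5, 4 and 4 of their members moved with the microglia markers (10.2%, 25.0% and 17.4%, beside 3.35% of all gene regions with the markers included). With the microglia covariate their medians were -0.17, 0.172 and -0.759 points, with 29 of 49, 7 of 16 and 16 of 23 lower. Cytochrome P450 genes, of steroid and drug metabolism, had 31 of 47 lower and a median of -0.390. In those 11 libraries the median of the solute carriers turned to 0.153 points and the TNF family median turned to 0.0458 points, with 12 of 23 higher, and 25 of 49 interleukin and receptor genes and 25 of 47 cytochrome P450 genes were lower; olfactory receptor genes kept 21 of 35 lower and a median of -0.807.

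Single members of smallest p in a family had an adjusted p of 1.0 in limma. Pcdhb13, a clustered protocadherin gene of neuronal identity, was at 36.3% to 57.0% in HEM (median 48.8%) and 58.4%, 62.4%, 66.7% and 55.6% in WT, a difference of -14.0 points over 4 CpGs, and at 3 months it was lower in HEM by 8.31 points. Serpinf1, which encodes a factor that protects neurons and blocks vessel growth, was at 8.68% to 19.1% in HEM and 33.6%, 23.5%, 16.0% and 18.7% in WT, and was higher in HEM by 4.78 points at 3 months. Ccr7, a homing receptor of leukocytes, differed by -5.35 points, and the host gene of the neuronal microRNA miR-124, Mir124a-1hg, by 2.43. HEM and WT libraries overlapped in each of these 4.

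Lists of genes tied to disease or to brain function had no called member, and their medians were within 0.242 points of 0. Disease-associated microglia genes had 6 of 12 tested members higher and a median of 0.0980 points, familial Parkinson disease and risk genes 12 of 20 and 0.115, lysosome and autophagy genes 11 of 19 and 0.0691, and synaptic vesicle and dopamine neuron genes 14 of 24 and 0.0584. Oxidative stress and mitochondrial genes had 9 of 16 and 0.242, the writers, erasers and readers of methylation 7 of 15 and -0.00223, and imprinted genes 11 of 26 and -0.231. Among the immune lists, cytokine genes had 12 of 17 lower and a median of -0.407 points, Toll-like receptor and inflammasome genes 11 of 15 and -0.242, and antigen presentation and interferon genes 6 of 10 and -0.356. Of the cytokine genes 6 (35.3%, beside 3.35% of all gene regions) moved with the microglia markers. With the microglia covariate the cytokine median was -0.768 points, and 12 of 17 were lower. Without HEM replicate 8 the median of the imprinted genes turned to 0.382 points, with 18 of 26 higher, and that of the methylation machinery to 0.109. Of the Parkinson disease genes 18 of 20 were then higher, with a median of 0.325. This rise was not particular to them: 58.8% of all gene regions were higher, with a median of 0.165, and so were 10 of 11 oligodendrocyte lineage markers. The 3 immune lists kept negative medians of -0.336, -0.116 and -0.0725.

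The members of smallest p in each list had unadjusted p on both sides of 0.05 in limma, and 4 not yet described follow. Tap1, a peptide transporter of antigen presentation, was at 14.4% to 16.1% in HEM and 12.4%, 14.6%, 14.5% and 13.9% in WT, and Cldn5, the tight junction protein of the blood-brain barrier, at 5.45% to 7.25% and 5.51%, 5.77%, 5.23% and 4.63%. Opa1, which fuses mitochondria, was at 60.3% to 62.2% in HEM and 59.3%, 59.6%, 61.2% and 60.1% in WT. Apobec1, a cytidine deaminase, was at 58.4% to 66.5% and 58.8%, 59.3%, 55.2% and 57.7%. Each was higher in HEM on average, by 1.51, 1.30, 1.06 and 3.15 points, and each overlapped with WT (limma adjusted p = 1.0). Their unadjusted p in limma was 0.00633, 0.00530, 0.0888 and 0.0514. Cldn5 goes against its list, of which 11 of 15 tested members were lower in HEM, or 6 of 15 without HEM replicate 8.

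The mouse gene whose promoter drives the transgene did not differ beyond the spread between libraries. Thy1 (chr9:44043384-44048579, 15 CpGs) was at 42.9% ± 4.01 in HEM (SD, n = 8) and 45.5% ± 3.62 in WT (SD, n = 4; two-sided exact permutation p = 0.311). Reads from the Thy-1 sequence of the transgene and from the mouse gene cannot be told apart here. Methylation does not show the level of the transgene, so these values are no check of the genotype labels.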

How the data were processed

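The deposited values are the percent methylation of each listed position in each library, with no read counts. Per the submitters' processing notes Bowtie2, methylKit and mm10 were used; the role and version of each are not given in the sources used here, nor are filters or depth, so no counting interval can be given. In all, 1 value column matched no sample and was not used. Sampled against promoter sequences, 99.6% of 16132 listed positions lay in a CG. Libraries were grouped by their labels, and the design text calls the samples mice. It counts 3 WT mice at 3 months where 4 samples carry that label, and the label was used.

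CpGs were averaged per library over 1 kb tiles and over gene regions and promoter windows of RefSeq GRCm38.p6, each with at least 3 CpGs. Features with a mean of 5% to 95% were tested in R 4.3.3 with limma 3.58.1, on a log2 scale: the log2 ratio of methylated to unmethylated percent, an offset of 1 added to both, on autosomes and sex chromosomes together, with Benjamini-Hochberg adjustment over all features, and only autosomal results are reported. A call needs an adjusted p under 0.05 and a difference of 10 points (CpGs) or 5 points (other features). The code was tested on simulated data. Class means and distances had exact permutation tests in numpy 2.4.6, and correlations, computed in scipy 1.17.1, had 100000 permutations. Of the listed gene symbols, 361 of 363 matched. Named features were the called CpGs, the 10 tiles, 5 gene regions and 5 promoter windows of smallest p in each direction, the 5 tiles each way with the microglia covariate, all tested microglia markers, Thy1, and the smallest-p member of each list and family with at least 10 tested; a few of these are not reported here. Loci that follow the marker mean, and that test, were added after the data had been seen. The comparison, lists and tests were chosen with earlier results of these data known.

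HEM and WT share replicate numbers 1, 6 and 7. Deviations from the group means correlated at 0.189, 0.410 and 0.104 over 69501 tiles in libraries of the same number, so the numbers were taken to pair the samples, from the data and not from the labels. Alternatives were other scales, offsets, filters, covariates, the replicate block, and each library left out.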

Additional observations from a re-analysis of the deposited data

Results flagged for a closer look

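Of 54 groups of library values examined for a value far from the rest, 1 was marked (1.85%), where chance marks about 1 in 20. It was the mean over imprinted gene regions, genes expressed from 1 parental copy, in HEM: HEM replicate 8 was at 32.9% and the other 7 HEM libraries at 38.3% to 41.7%. The same library had the lowest mean in each of the 11 classes of CpGs by place, density and level, and its part in this value was not tested.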

How the results depend on the processing

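Depth is unknown, so no limit of detection can be given. With 4 WT libraries, the count of called CpGs was 5 with the microglia covariate, 6 with the neuron covariate, 13 with no minimum difference, 1 with adjacent positions averaged, and 0 on the percent scale, with an offset of 5, with the replicate block and in the same 6 libraries without it; it was 3 to 43 when each library was left out. The cause of these changes was not tested. Tiles, gene regions and promoter windows gave 0 calls in every alternative run, the block included, except 1 gene region with the neuron covariate. The direction of most features was less stable. With the neuron covariate 34.2% of gene regions and 37.9% of tiles were higher in HEM, beside 48.9% and 47.2% without it. In the 6 paired libraries, with the block and without it, 71.9% of gene regions and 63.6% of tiles were higher. Loci following the marker mean ran from 1005 to 4589 tiles, 295 to 1574 gene regions and 131 to 491 promoter windows when a library was left out, an alternative added after seeing the data. Some class differences changed sign: with the replicate block, which uses 3 pairs and cannot give an exact permutation p under 0.25, all autosomal CpGs 0.786, outside genes 1.09, sparse CpGs 1.52, level over 80% 0.587 and chromosome 3 0.588 points; with the median all autosomal CpGs 0.101 and chromosome 3 0.0912; after the marker mean was taken out inside genes -0.0279 and level 20% to 80% -0.0296. Leaving out each library gave -0.144 to 0.250 points over all autosomal CpGs, -0.0139 to 0.0892 near starts, -0.0549 to 0.235 near other boundaries, -0.166 to 0.534 inside genes, -0.733 to 0.128 outside genes, -0.453 to 0.394 at sparse, -0.000878 to 0.304 at intermediate and 0.0180 to 0.0815 at dense CpGs, -0.0478 to 0.0728, -0.396 to 1.2 and -0.459 to 0.0321 by level from low to high, -0.0500 to 0.335 on chromosome 19, -0.256 to 0.115 on chromosome 3, and 0.0595 to 0.262 for the distance. Of 114 named features 8 changed sign with the microglia covariate, all markers: C1qa 0.682, Csf1r 0.654, Ctss 1.46, Ikzf1 0.00407, Irf8 0.0929, Laptm5 0.329, Tmem119 0.154 and Trem2 0.0853. With the neuron covariate Itgam was -0.222 and Runx1 -0.00931, with adjacent positions averaged Selplg was -0.138, and Ikzf1 was 0.529 with the block and in the same 6 libraries without it. Ikzf1 ran from -0.245 to 0.249, Sall1 from -0.141 to 0.331 and Selplg from -2.61 to 2.56 as libraries were left out. The 3 called CpGs were lost in the 6 paired libraries with and without the block, so that the block itself changed no call between HEM and WT. It did raise the share with a limma unadjusted p under 0.05, from 4.96% to 8.31% of tiles and from 5.59% to 9.62% of gene regions. Loci following the marker mean were not run with the block.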

Other observations

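Without a minimum difference, 13 CpGs had a limma adjusted p under 0.05, of which 12 were lower in HEM. Beside the called CpGs they included, chosen after their values were seen, positions in Atp2b2, a calcium pump of neurons, at -9.84 points, Cacng2, which carries AMPA receptors to synapses, at -8.05, and Atxn1, a transcriptional regulator mutated in a spinocerebellar ataxia, at -7.97. With the microglia marker mean as a covariate a CpG in Adcy5, an adenylyl cyclase gene of the striatum, was called at -12.9 points (limma adjusted p = 0.0400), and with the neuron marker mean a CpG in Alox5, which makes leukotrienes, at -11.7 points (limma adjusted p = 0.0303). The gene region called with the neuron covariate was 1700112M02Rik (chr13:71487613-71612710), at -7.66 points (limma adjusted p = 0.0468).

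In the fit with the microglia covariate the 5 tiles of smallest p in each direction included tiles in Grik4, a kainate receptor subunit gene, at -7.59 points without and -8.60 with the covariate, and in Aox2, an aldehyde oxidase gene, at -9.55 and -11.4 points (limma adjusted p = 0.725).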
